A study of Mus musculus with 40 samples.

Results

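Transforming growth factor β (TGFβ) is secreted in a latent form, and 10 genes of that system were followed in cultured mouse cardiac fibroblasts. They are the 3 ligands Tgfb1, Tgfb2 and Tgfb3, the 3 receptors Tgfbr1, Tgfbr2 and Tgfbr3, and the 4 latent TGFβ binding proteins (LTBPs) Ltbp1, Ltbp2, Ltbp3 and Ltbp4. The genes were listed by name, with earlier results of these data known, and are 10 of the 55414 genes in the deposited table. All 10 were among the 25210 genes that had at least 10 counts over the 40 libraries.

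Each TGFβ ligand is made with a propeptide that holds it inactive, and an LTBP can be bound to that propeptide and tether the complex to matrix fibres such as fibrillin. Integrins and proteases release the ligand, which binds TGFBR2. TGFBR2 in turn activates the kinase TGFBR1, and SMAD transcription factors carry the signal to the nucleus. TGFBR3, or betaglycan, is a co-receptor that presents ligand, TGFβ2 above all. In the heart this system is known for turning fibroblasts into matrix-producing myofibroblasts.

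Fibroblasts came from the hearts of C57BL/6J TAK1fl/fl mice, in which loxP sites flank exon 2 of Map3k7, the gene of the kinase TAK1. All cells were grown in serum medium with bFGF, used at passage 1 and given an adenovirus with a CMV promoter, carrying either LacZ as the control or the recombinase iCre to inactivate TAK1. Serum was then withdrawn, and the cells were left without ligand (CTRL) or exposed for 24 h to bFGF at 20 ng/ml, TGFβ at 10 ng/ml, IL-1β at 15 ng/ml or TNFα at 10 ng/ml. Poly-A RNA was sequenced from 4 replicates of each of the 10 groups. The study describes the replicates as biological and male; the labels do not say which animals or cultures they came from, so p-values measure the spread between these samples. The virus acts on every cell type present in a culture, and a change in bulk RNA cannot tell fewer cells of a type from less RNA per cell.

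Total counts per library ran from 25360947 to 66160732, with a median of 36183962. The least-counted of the 10 genes in any library, Tgfb2, still had 101 counts there. With counts scaled to library size (CPM), fibroblast markers summed to between 15351 and 69714 CPM in every library, whereas of 4 cardiomyocyte markers, Myh6 and Nppa had under 10 counts over all libraries. The other cardiomyocyte markers, Tnnt2 and Actc1, summed to 14.6 to 110 CPM in LacZ CTRL and 6.43 to 43.6 CPM in iCre CTRL, and to at most 29.9 CPM in the ligand groups, with 0.326 to 1.64 CPM in LacZ IL-1β; their part in the ligand responses was not tested. Map3k7 reads from all exons are counted, so deletion of 1 exon need not remove them; Map3k7 averaged 153 to 239 CPM in the LacZ groups and 126 to 150 CPM in the iCre groups. It was lower in iCre with TGFβ, IL-1β and TNFα (log2 fold change −0.67, −0.82 and −0.71; adjusted p = 0.00088, 0.000274 and 0.000829, edgeR). In CTRL and bFGF it passed the threshold with the replicate number as a block (adjusted p = 0.00393 and 0.000409) and not without it (0.137 and 0.351). The 12 libraries of iCre cells given TNFα, TGFβ or IL-1β differed from the other 28 in how counts depend on a gene's GC content: the slope of log2 CPM per 10 percentage points of GC was 0.217 to 0.33 in the former and −0.243 to −0.0139 in the latter. Results of the 10 genes whose call changed with correction for that trend are given with the corrected value.

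Among the 10 genes, the largest rises were those of Ltbp2 and Tgfb1, which rose with TGFβ, IL-1β and TNFα, and the gene that differed most between LacZ and iCre was Tgfb2. Their upstream sequences are shown for that reason. They are the 250 bases before the RefSeq transcription start (GRCm38.p6), each written 5′ to 3′ on the gene's own strand. Ltbp2 is on the minus strand at chr12:84876492-84876741, Tgfb1 on the plus strand at chr7:25686752-25687001 and Tgfb2 on the minus strand at chr1:186705990-186706239. Capitals mark matches to the motifs that were searched.

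Ltbp2: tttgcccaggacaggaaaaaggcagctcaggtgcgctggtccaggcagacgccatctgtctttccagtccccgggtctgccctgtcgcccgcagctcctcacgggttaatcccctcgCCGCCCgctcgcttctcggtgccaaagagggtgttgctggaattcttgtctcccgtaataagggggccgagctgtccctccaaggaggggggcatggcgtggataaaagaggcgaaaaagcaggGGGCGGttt
Tgfb1: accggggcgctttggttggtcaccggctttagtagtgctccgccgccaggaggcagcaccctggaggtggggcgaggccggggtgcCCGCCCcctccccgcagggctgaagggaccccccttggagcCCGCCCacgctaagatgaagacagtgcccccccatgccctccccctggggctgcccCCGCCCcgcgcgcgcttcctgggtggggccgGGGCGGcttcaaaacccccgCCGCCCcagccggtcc
Tgfb2: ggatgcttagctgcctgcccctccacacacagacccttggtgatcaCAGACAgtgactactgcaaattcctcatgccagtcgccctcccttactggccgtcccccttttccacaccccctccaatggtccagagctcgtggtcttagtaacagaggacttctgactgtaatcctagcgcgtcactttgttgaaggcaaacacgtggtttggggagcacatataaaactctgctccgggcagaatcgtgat

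The search covered the 300-base window of the RefSeq table, from 250 bases before to 50 bases after the start, on both strands. In the Ltbp2 and Tgfb1 sequences every capital run is a GC box (GGGCGG or its complement), of which the whole window of Ltbp2 had 2 and that of Tgfb1 had 6, 5 of them in the bases shown. The GC box occurred in 35.7% of the 32851 mouse promoters in the table. The capital run of Tgfb2 is the SMAD motif CAGACA, which 21% of promoters hold, and its window had no GC box. None of these 3 windows held AP-1 (TGANTCA, in 7.81% of promoters), the cyclic AMP response element (TGACGTCA, 1.79%) or NF-kB (GGANTTTCC, 1.25%). Of the 10 genes, 8 had promoter entries, with 12 start sites between them; Tgfb3 and Tgfbr3 had none. Of those other starts, Tgfbr2 held 1 NF-kB match, and the first start of Ltbp1 held 1 cyclic AMP response element. Ltbp3 held 1 AP-1 match that shares bases with a SMAD match. SMAD matches were also held by the second starts of Tgfbr1 (1) and Ltbp1 (2). GC boxes were held by the first start of Tgfbr1 (2) and the 3 starts of Ltbp4 (3, 7 and 9). These matches describe letters only.

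In unstimulated LacZ cells Ltbp4, Tgfbr2 and Ltbp3 were the most abundant transcripts per length of merged exons, and the ligands Tgfb2 and Tgfb1 the least. On the scale of CPM per kilobase of merged exons, Ltbp4 had 100 ± 27.3 (SD, n = 4), Tgfbr2 67.1 ± 7.79 and Ltbp3 60.9 ± 7.15. The neighbours in this group of 3 overlapped between libraries, and all of its libraries lay above those of the next gene, Tgfb3. Below them came Tgfb3 with 40.1 ± 10.9 CPM per kilobase, Ltbp1 with 32.8 ± 17.3, Ltbp2 with 27.9 ± 9.34 and Tgfbr3 with 25.8 ± 16.7, again with overlapping neighbours; the highest Ltbp1 library, at 58.7, reached into the range of Ltbp3. Tgfbr1 followed with 11.2 ± 1.13 CPM per kilobase, apart from the genes on either side of it, then Tgfb2 with 8.3 ± 1.14 and Tgfb1 with 6.63 ± 0.6, which overlapped. Dividing by the longest transcript instead raised Tgfb1 to 13 CPM per kilobase, above Tgfbr1 at 12.7 and Tgfb2 at 9.39, and Ltbp3 to 96.5, above Tgfbr2 at 67.9, so those orders depend on the length used.

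**Figure D1:**
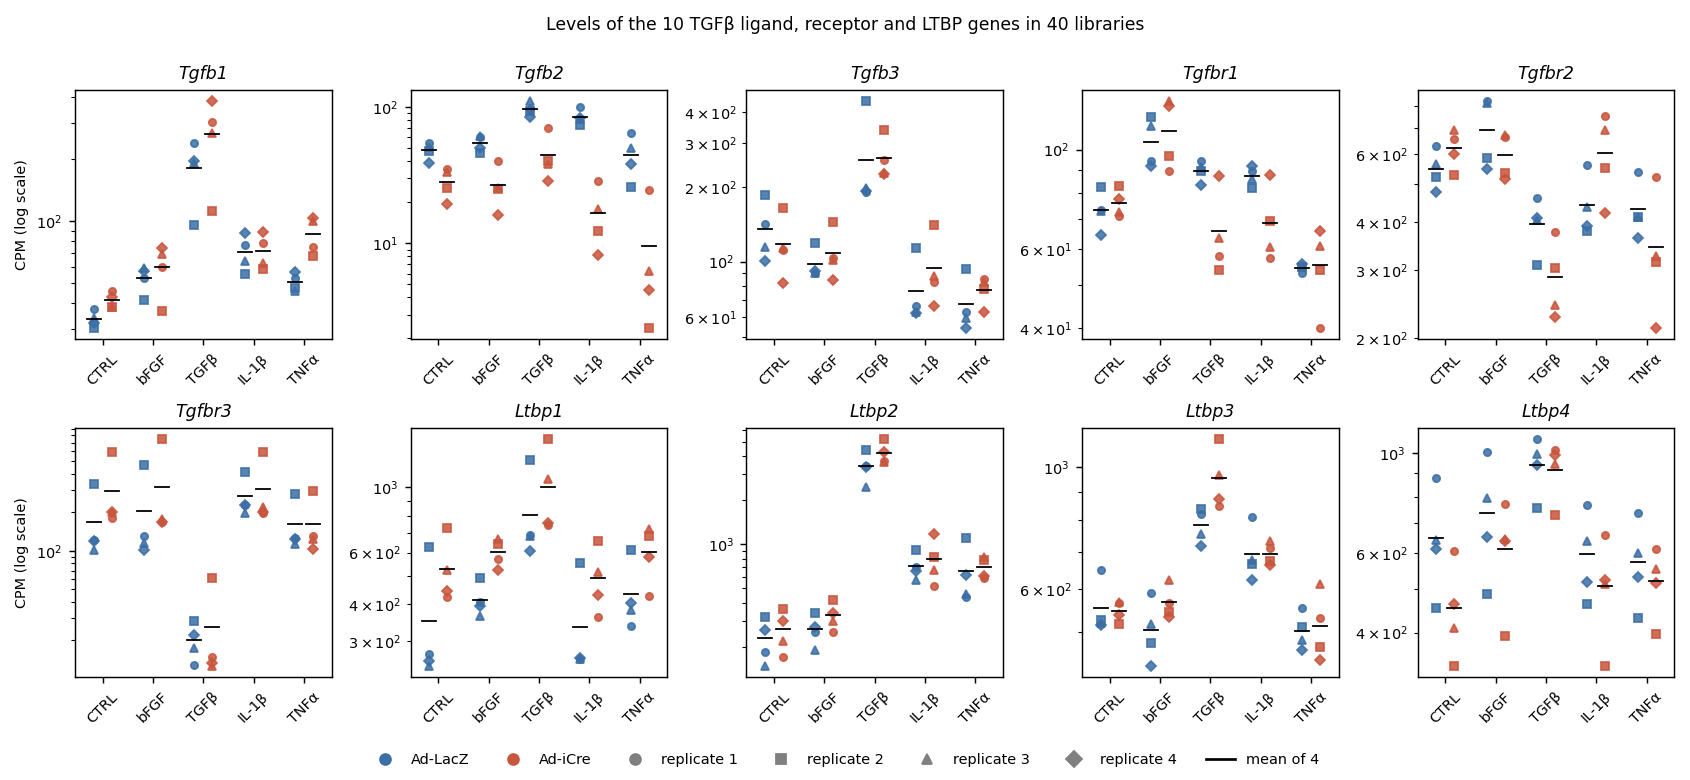
CPM (log scale) of each of the 10 genes in the 40 libraries, with LacZ in blue and iCre in red, 1 symbol per replicate number and a bar at the mean of 4. Ltbp2 and Tgfb1 lie highest and Tgfbr3 lowest under TGFβ in both viruses, and Tgfb2 separates the viruses most under IL-1β and TNFα.

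TGFβ moved most of the genes. In LacZ cells, 7 of the 10 rose and 2 fell with TGFβ, against 17.5% of all tested genes that rose and 19.3% that fell. All 3 ligands and Tgfbr1, Ltbp1, Ltbp2 and Ltbp3 were the 7 that rose, and Tgfbr2 and Tgfbr3 were the 2 that fell. The median log2 fold change of the 10 genes was 0.74, beside −0.17 over all genes. In iCre cells, 6 rose (18.6% of all genes) and 2 fell (18.8%), with medians of 0.88 and −0.11. Tests were edgeR quasi-likelihood tests, with p-values adjusted by Benjamini-Hochberg over all 25210 genes and a threshold of 0.05, on 8 libraries per comparison. No gene of the 10 passed the test for a different TGFβ response in iCre and LacZ cells (0.893% of all genes had a more positive response in iCre and 3.62% a more negative one), and 2 of the 10 had an unadjusted p under 0.05 there. DESeq2 called 2 in that comparison, Tgfbr1 (−0.52 ± 0.19, adjusted p = 0.0404) and Tgfbr2 (−0.65 ± 0.24, adjusted p = 0.045), both more negative in iCre. In edgeR with GC correction Tgfbr1 was −0.13 ± 0.18 there (adjusted p = 0.888). With the replicate block 2 passed there too (2.36% of all genes more positive and 5.68% more negative), Tgfbr2, more negative in iCre (−0.67 ± 0.16, adjusted p = 0.0133), and Ltbp4, more positive (0.45 ± 0.13, adjusted p = 0.0391); Ltbp4 did not pass once GC was corrected as well (adjusted p = 0.63).

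Ltbp2, whose protein binds fibrillin and, unlike the other LTBPs, is not known to bind latent TGFβ, rose most. In LacZ cells it read 185, 320, 149 and 260 CPM in CTRL and 3423, 4364, 2452 and 3375 CPM in TGFβ, in the order of replicates 1 to 4. In iCre cells it read 172, 365, 220 and 302 CPM in CTRL and 3712, 5174, 3640 and 4249 CPM in TGFβ. Every TGFβ library lay far above every CTRL library. The rise was 15.1-fold in LacZ (log2 fold change 3.92 ± 0.27 SE, adjusted p = 4.62e-06) and 16-fold in iCre (4.0 ± 0.25, adjusted p = 1.83e-06). Exons of an antisense gene, D030025P21Rik, overlap 764 bases of Ltbp2, and the strand setting of the counting was not given.

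Tgfb1 encodes the ligand that TGFβ itself is known to induce. It read 37.4, 30.3, 33.9 and 32.1 CPM in LacZ CTRL and 241, 95.9, 192 and 195 CPM in LacZ TGFβ. In iCre cells it read 45.7, 38.0, 38.2 and 42.6 CPM in CTRL and 305, 112, 267 and 382 CPM in TGFβ. The groups did not overlap, and replicate 2 was the lowest TGFβ library under both viruses. The rise was 5.48-fold in LacZ (2.46 ± 0.24, adjusted p = 3.41e-05) and 6.57-fold in iCre (2.72 ± 0.31, adjusted p = 5.76e-05).

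The co-receptor gene Tgfbr3 fell most. It read 122, 332, 102 and 119 CPM in LacZ CTRL and 12.7, 28.3, 17.3 and 21.9 CPM in LacZ TGFβ. In iCre cells it read 181, 598, 202 and 201 CPM in CTRL and 14.8, 60.9, 12.6 and 13.3 CPM in TGFβ. All TGFβ libraries were below all CTRL libraries, and replicate 2 was the highest of its group in each. Tgfbr3 was 8.26-fold lower with TGFβ in LacZ (−3.05 ± 0.39, adjusted p = 0.000178) and 11.5-fold lower in iCre (−3.53 ± 0.62, adjusted p = 0.00108). A same-strand gene model, Gm43422, shares 297 exonic bases with Tgfbr3.

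The other receptors moved less. Tgfbr2, the ligand-binding kinase, read 629, 524, 566 and 479 CPM in LacZ CTRL and 460, 310, 404 and 410 CPM in LacZ TGFβ; all TGFβ libraries were below all CTRL libraries. Its log2 fold change was −0.45 ± 0.14 in LacZ (adjusted p = 0.0275) and −1.09 ± 0.16 in iCre (adjusted p = 0.000406). The LacZ call was lost without replicate 3 or replicate 4 (adjusted p = 0.125 and 0.066). With the replicate block the LacZ change was −0.46 ± 0.09 (adjusted p = 0.00166). Tgfbr1, which encodes the kinase that phosphorylates SMAD proteins, rose by 0.31 ± 0.09 in LacZ (adjusted p = 0.0179). That call was lost without replicate 1, 3 or 4 (adjusted p = 0.0656, 0.108 and 0.0569). With the block the Tgfbr1 rise was 0.31 ± 0.07 (adjusted p = 0.00547).

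Tgfb2 and Tgfb3, the other ligand genes, rose in LacZ. Tgfb2 read 54.4, 47.7, 51.0 and 39.0 CPM in CTRL and 97.2, 94.1, 110 and 85 CPM in TGFβ, a rise of 1.03 ± 0.12 (adjusted p = 9.96e-05), with no overlap. In iCre the change of 0.66 ± 0.27 did not pass without the block (adjusted p = 0.0824) and passed with it (0.000879). Tgfb3 read 142, 185, 115 and 101 CPM in LacZ CTRL and 190, 440, 198 and 192 CPM in LacZ TGFβ. Replicate 2 was the highest Tgfb3 library in both groups and the groups did not overlap. Tgfb3 rose by 0.93 ± 0.29 in LacZ (adjusted p = 0.0274) and by 1.17 ± 0.2 in iCre (adjusted p = 0.000966). The LacZ call was lost without replicate 1, 3 or 4 (adjusted p = 0.0543, 0.0765 and 0.0684). With the block the LacZ rise of Tgfb3 was 0.86 ± 0.12 (adjusted p = 0.000179).

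Ltbp1, Ltbp3 and Ltbp4 encode the LTBPs that bind latent TGFβ. Ltbp1 rose by 1.23 ± 0.33 in LacZ (adjusted p = 0.0136) and by 0.95 ± 0.24 in iCre (adjusted p = 0.00931). The LacZ call was lost without replicate 1 or 3 (adjusted p = 0.0612 and 0.0603). The iCre call was lost without replicate 3 (adjusted p = 0.062). With the block the rises were 1.28 ± 0.09 in LacZ (adjusted p = 2.14e-06) and 0.92 ± 0.09 in iCre (adjusted p = 2.39e-06). Ltbp3 rose by 0.52 ± 0.12 in LacZ (adjusted p = 0.00483) and by 0.82 ± 0.11 in iCre (adjusted p = 0.000171), from group means of 553 and 547 CPM to 785 and 955 CPM. Ltbp4 rose in iCre by 1.03 ± 0.18 (adjusted p = 0.00112), from 605, 338, 409 and 464 CPM to 1013, 727, 944 and 986 CPM, with no overlap. In LacZ its change of 0.55 ± 0.2 did not pass (adjusted p = 0.0521), but it passed with the block (0.000439), with GC correction (0.026) and in DESeq2 (0.0226).

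**Figure D2:**
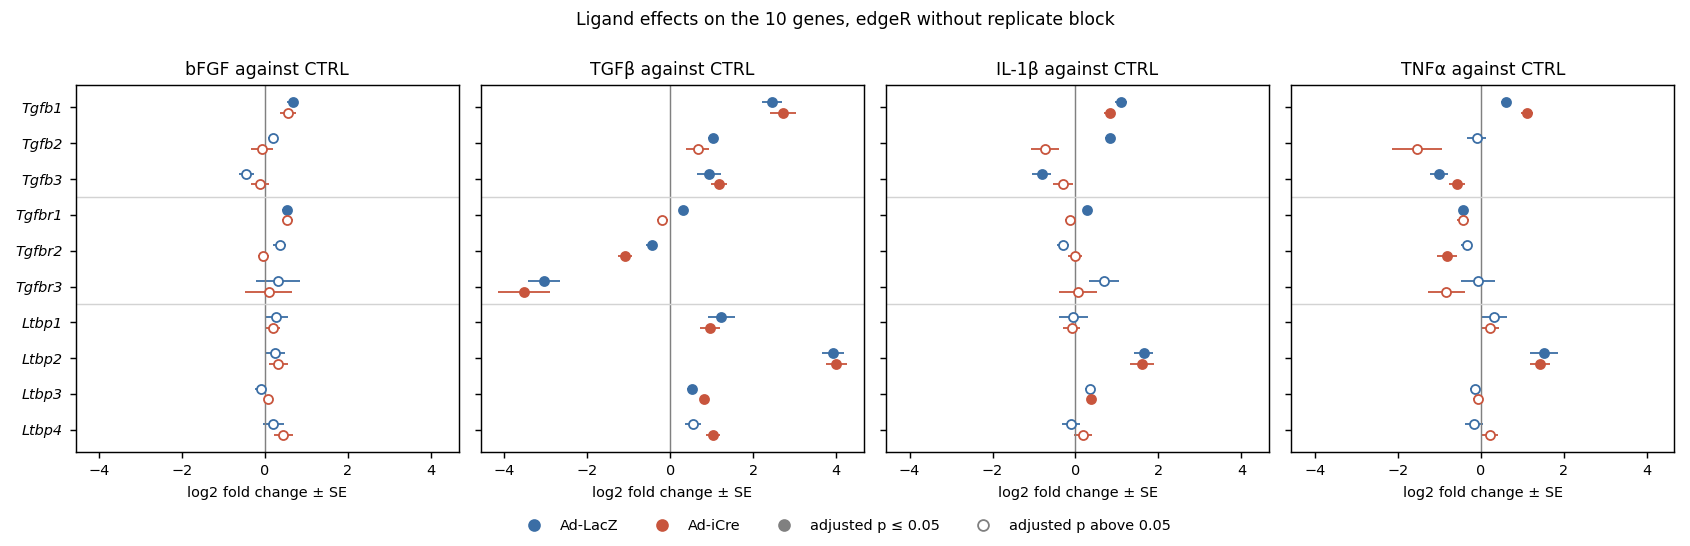
Log2 fold change ± SE of each gene with bFGF, TGFβ, IL-1β or TNFα against CTRL, for LacZ (blue) and iCre (red) from 4 against 4 libraries; filled points had an adjusted p of at most 0.05 in edgeR without the replicate block. TGFβ gives the widest spread, from Tgfbr3 at −3.05 in LacZ and −3.53 in iCre to Ltbp2 at 3.92 and 4.0.

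IL-1β raised 4 of the 10 genes in LacZ cells and lowered 1, against 11.1% and 9.55% of all genes. Ltbp2 rose by 1.65 ± 0.23 (adjusted p = 0.000972), Tgfb1 by 1.1 ± 0.14 (adjusted p = 0.000663), Tgfb2 by 0.84 ± 0.12 (adjusted p = 0.00127) and Tgfbr1 by 0.27 ± 0.08 (adjusted p = 0.0451). Tgfb3 was the gene that fell, by 0.81 ± 0.23 on the log2 scale (adjusted p = 0.0296), so the ligand genes moved in opposite directions. The median of the 10 genes was 0.3, beside −0.1 over all genes. In single libraries Ltbp2 read 696, 914, 569 and 659 CPM with IL-1β, above all CTRL libraries. Tgfb3 read 66.3, 114, 62.8 and 62.3 CPM with IL-1β, where replicate 2 lay within the CTRL range. The Tgfb3 call was lost without replicate 1, 3 or 4 (adjusted p = 0.138, 0.12 and 0.0755), and so was that of Tgfbr1 (adjusted p = 0.168, 0.161 and 0.281). With the block Tgfb3 changed by −0.83 ± 0.08 (adjusted p = 5.09e-10) and Tgfbr1 by 0.27 ± 0.08 (adjusted p = 0.00777). With the block 8 passed, 6 higher and 2 lower, against 16.3% and 17.3% of all genes; the added ones were Tgfbr3 (0.79 ± 0.09, adjusted p = 7.39e-09), Ltbp3 (0.34 ± 0.08, adjusted p = 0.000908) and Tgfbr2, which was lower (−0.31 ± 0.08, adjusted p = 0.00248).

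In iCre cells IL-1β raised 3 of the 10 genes and lowered none, against 9.38% and 6.88% of all genes, with a median of 0.02 beside 0.0. Ltbp2 rose by 1.6 ± 0.29 (adjusted p = 0.00449), Tgfb1 by 0.82 ± 0.14 (adjusted p = 0.00368) and Ltbp3 by 0.37 ± 0.09 (adjusted p = 0.0171). Ltbp3 no longer passed after GC correction (0.16 ± 0.08, adjusted p = 0.271) or without replicate 1, 3 or 4 (adjusted p = 0.0786, 0.107 and 0.0749). With the block 5 passed, 3 higher and 2 lower, against 18.1% and 15.6% of all genes; those lower were Tgfb2 (−0.83 ± 0.09, adjusted p = 5.31e-15) and Tgfb3 (−0.32 ± 0.07, adjusted p = 7.31e-05). With GC correction and the block Ltbp3 did not pass (adjusted p = 0.0553), Ltbp1 passed as lower (−0.26 ± 0.07, adjusted p = 0.00266), and Tgfbr1 passed as higher (0.24 ± 0.07, adjusted p = 0.0141), against −0.13 ± 0.13 without either term. With the block IL-1β therefore raised Tgfb2 in LacZ cells and lowered it in iCre cells.

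TNFα raised 2 of the 10 genes and lowered 2 in LacZ cells, against 10.9% and 10.4% of all genes, with a median of −0.12 beside −0.08 over all genes. Ltbp2 rose by 1.53 ± 0.33 (adjusted p = 0.00844) and Tgfb1 by 0.6 ± 0.1 (adjusted p = 0.00214). Tgfb3 fell by 1.00 ± 0.21 on the log2 scale (adjusted p = 0.00803), to 63.0, 93.3, 59.6 and 54.3 CPM, below every CTRL library. Without replicate 1 that call was lost (adjusted p = 0.0528). Tgfbr1 fell by 0.42 ± 0.08 on the log2 scale (adjusted p = 0.00362), from 73.2, 82.6, 72.8 and 64.5 CPM to 53.1, 54.7, 54.8 and 55.5 CPM. With the block 7 passed, 3 higher and 4 lower (17.2% and 18.4% of all genes), Ltbp1 joining those that rose (0.39 ± 0.08, adjusted p = 0.000931) and Tgfbr2 (−0.35 ± 0.06, adjusted p = 6.96e-05) and Ltbp4 (−0.16 ± 0.06, adjusted p = 0.035) those that fell. Ltbp4 did not pass with GC correction as well (−0.03 ± 0.05, adjusted p = 0.714).

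In iCre cells TNFα again raised 2 genes and lowered 2, against 14.7% and 12.3% of all genes, with a median of −0.24 beside −0.04. Ltbp2 rose by 1.43 ± 0.23 (adjusted p = 0.00151) and Tgfb1 by 1.11 ± 0.15 (adjusted p = 0.000662). Tgfbr2 fell by 0.81 ± 0.24 on the log2 scale (adjusted p = 0.0288) and Tgfb3 by 0.58 ± 0.19 (adjusted p = 0.0477). The Tgfbr2 call was lost without replicate 2, 3 or 4 (adjusted p = 0.0553, 0.162 and 0.0786) and that of Tgfb3 without replicate 1, 2 or 3 (adjusted p = 0.0805, 0.12 and 0.135). With the block 8 passed, 3 higher and 5 lower (18.9% and 17.3% of all genes); Ltbp4 was the added gene that was higher (0.24 ± 0.08, adjusted p = 0.0393). The added lower genes were Tgfb2 (−2.03 ± 0.37, adjusted p = 0.00172), Tgfbr3 (−0.76 ± 0.1, adjusted p = 0.000184) and Tgfbr1 (−0.45 ± 0.1, adjusted p = 0.00715). Tgfbr1, whose exons have the lowest GC content of the 10 genes, at 41%, did not pass once GC was corrected as well (−0.06 ± 0.11, adjusted p = 0.742), nor did Ltbp4 (0.1 ± 0.08, adjusted p = 0.404), whereas Ltbp3 then passed as lower (−0.25 ± 0.08, adjusted p = 0.0299).

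bFGF, a growth factor already present in the culture medium before starvation, moved fewer genes. In LacZ cells it raised Tgfb1 by 0.67 ± 0.13 (adjusted p = 0.00921) and Tgfbr1 by 0.53 ± 0.12 (adjusted p = 0.0171), 2 of the 10 genes against 7.0% of all genes, and lowered none against 4.64%. Tgfb1 lost its call without replicate 3 or 4 (adjusted p = 0.104 and 0.0917), and Tgfbr1 without replicate 1, 3 or 4 (adjusted p = 0.0576, 0.15 and 0.0708). With the block 7 passed, 6 higher and 1 lower (14.2% and 13.1% of all genes), the lower one being Tgfb3 (−0.43 ± 0.09, adjusted p = 0.00159). The added higher ones were Tgfbr2 (0.34 ± 0.07, adjusted p = 0.0025), Ltbp1 (0.38 ± 0.12, adjusted p = 0.0305), Ltbp2 (0.26 ± 0.08, adjusted p = 0.0189) and Ltbp4 (0.19 ± 0.07, adjusted p = 0.0478). The median of the 10 genes was 0.25 in LacZ, beside −0.03 over all genes. In iCre cells edgeR called none of the 10 with bFGF, against 1.79% of all genes higher and 0.635% lower; 2 of the 10 had an unadjusted p under 0.05 and DESeq2 called 1. With the block 4 passed, all higher, against 9.28% of all genes higher and 7.41% lower: Tgfb1 (0.51 ± 0.12, adjusted p = 0.00656), Tgfbr1 (0.53 ± 0.09, adjusted p = 0.000799), Ltbp2 (0.36 ± 0.08, adjusted p = 0.00486) and Ltbp4 (0.43 ± 0.08, adjusted p = 0.00106). None of the 10 passed the test for a different bFGF response in iCre and LacZ cells, and neither did any of the 25210 genes (0.0% in either direction); 0 of the 10 had an unadjusted p under 0.05 there, and DESeq2 called 0.

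The comparison of iCre with LacZ in each treatment addresses which of these genes depend on TAK1. Without the block, 0 of the 10 passed in CTRL (0.0278% of all genes higher and 0.0476% lower) and 0 in bFGF (0.0% either way). Of the 10, 3 and 2 had an unadjusted p under 0.05. DESeq2 called 1 and 2, for which no share of all genes was counted. With TGFβ, 1 was lower and none higher, against 5.87% and 2.51% of all genes. With IL-1β, 1 was lower and none higher (8.98% and 7.14%), and with TNFα 1 was lower and 1 higher (12.6% and 14.8%). The lower gene was Tgfb2 in all 3, and the higher one with TNFα was Tgfb1.

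Tgfb2 encodes a ligand best known for its part in heart valve development. In CTRL it read 54.4, 47.7, 51.0 and 39.0 CPM under LacZ, and under iCre 35.2, 25.5, 33.5 and 19.4 CPM. In bFGF it read 60.1, 45.9, 60.9 and 50.4 CPM under LacZ, and under iCre 40.1, 24.9, 25.6 and 16 CPM. In both treatments every iCre library lay below every LacZ library. In TGFβ it read 97.2, 94.1, 110 and 85 CPM under LacZ, and under iCre 70.5, 39.9, 38.1 and 28.6 CPM. In IL-1β it read 100, 74.3, 82.2 and 83.6 CPM under LacZ, and under iCre 28.8, 12.4, 17.9 and 8.16 CPM. The viruses were again apart in both treatments. In TNFα it read 64.7, 25.8, 50.1 and 38.0 CPM under LacZ, and under iCre 24.7, 2.40, 6.31 and 4.51 CPM. Replicate 1 of iCre was just below the lowest LacZ library there, and the other iCre libraries were far lower.

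Tgfb2 was 2.23-fold lower in iCre with TGFβ (log2 fold change −1.16 ± 0.23, adjusted p = 0.0133), 5.1-fold lower with IL-1β (−2.35 ± 0.32, adjusted p = 0.000964) and 4.62-fold lower with TNFα (−2.21 ± 0.64, adjusted p = 0.0286). With the block it was lower in CTRL too, by 0.79 ± 0.08 on the log2 scale (adjusted p = 3.69e-06), and in bFGF, by 1.08 ± 0.12 (adjusted p = 1.24e-06). Without the block these comparisons had adjusted p = 0.112 and 0.275 in edgeR. DESeq2 without the block gave −0.76 in CTRL (adjusted p = 0.00717) and −1.03 in bFGF (adjusted p = 0.0116). With GC correction alone the TGFβ comparison had adjusted p = 0.0551, and with GC correction and the block it was −1.18 ± 0.14 (adjusted p = 5.17e-05). The TGFβ call was lost without replicate 3 or 4 (adjusted p = 0.144 and 0.0587), as was the TNFα call (adjusted p = 0.154 and 0.119), and the IL-1β call was kept whichever replicate was left out. Exons of the antisense gene Gm29491 overlap 124 bases of Tgfb2.

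The response of Tgfb2 to IL-1β itself differed between the viruses, and Tgfb2 was the 1 gene of the 10 to pass that test, against 4.95% of all genes with a more negative response in iCre and 2.76% with a more positive one. The response was lower in iCre by 1.58 ± 0.4 on the log2 scale (adjusted p = 0.0216, edgeR over 16 libraries). The call was lost without replicate 2, 3 or 4 (adjusted p = 0.0543, 0.178 and 0.0513). With the block the difference was −1.66 ± 0.23 (adjusted p = 5.31e-05), and 3 genes passed, against 8.98% of all genes lower and 7.9% higher. The added ones were Tgfbr3 (−0.74 ± 0.15, adjusted p = 0.00138) and Tgfb3 (0.5 ± 0.11, adjusted p = 0.00364), and Tgfb3 did not pass with GC correction as well (adjusted p = 0.0528), whereas Tgfb1 then passed (−0.45 ± 0.12, adjusted p = 0.0229). For TNFα none of the 10 passed the test of unlike responses (7.7% of all genes lower and 8.38% higher), with 1 of the 10 at an unadjusted p under 0.05, and DESeq2 called 0. With the block 6 passed, 3 lower and 3 higher, against 11.9% and 13.2% of all genes. Those lower were Tgfb2 (−1.67 ± 0.47, adjusted p = 0.0157), Tgfbr3 (−0.78 ± 0.13, adjusted p = 0.000511) and Tgfbr2 (−0.53 ± 0.18, adjusted p = 0.0461). The 3 higher ones, Tgfb1 (0.49 ± 0.16, adjusted p = 0.0305), Tgfb3 (0.45 ± 0.16, adjusted p = 0.0439) and Ltbp4 (0.39 ± 0.11, adjusted p = 0.0125), did not pass with GC correction as well (adjusted p = 0.189, 0.317 and 0.531).

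**Figure D3:**
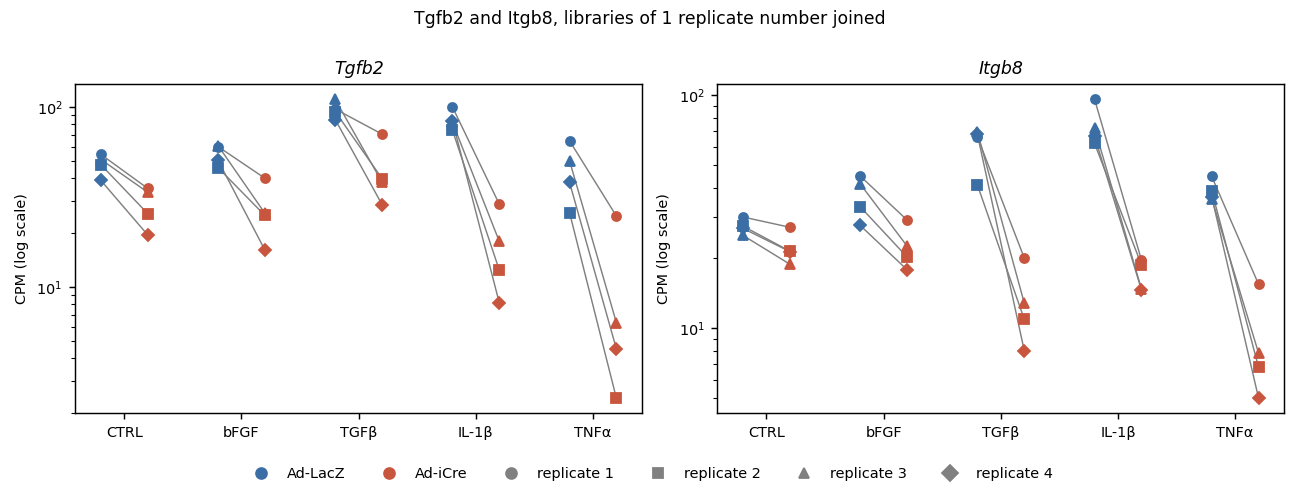
CPM (log scale) of Tgfb2 and Itgb8 in each treatment, with LacZ in blue, iCre in red, and grey lines joining the libraries that share a replicate number. Every line falls from LacZ to iCre for both genes, most steeply under TNFα and IL-1β for Tgfb2, where the iCre libraries lie between 2.40 and 28.8 CPM.

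Tgfb1 was 1.73-fold higher in iCre than in LacZ with TNFα (0.79 ± 0.15, adjusted p = 0.00307). It read 52.6, 47.5, 45.8 and 56.8 CPM under LacZ, and under iCre 74.7, 67.4, 100 and 104 CPM, with no overlap. With GC correction and the block the difference was 0.57 ± 0.11 (adjusted p = 0.00469).

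With the block more genes separated the viruses. In CTRL 6 passed, 3 higher and 3 lower in iCre, against 6.79% and 7.7% of all genes. Tgfbr3 (0.78 ± 0.07, adjusted p = 1.78e-06), Ltbp1 (0.67 ± 0.1, adjusted p = 0.000179) and Tgfb1 (0.29 ± 0.07, adjusted p = 0.00846) were higher. Tgfb2, Ltbp4 (−0.51 ± 0.06, adjusted p = 4.53e-05) and Tgfb3 (−0.22 ± 0.07, adjusted p = 0.0401) were lower. In bFGF 5 passed, 3 higher and 2 lower (6.64% and 7.22% of all genes): Tgfbr3 (0.59 ± 0.08, adjusted p = 1.14e-05), Ltbp1 (0.54 ± 0.08, adjusted p = 8.41e-05) and Ltbp2 (0.33 ± 0.09, adjusted p = 0.0127) higher, and Tgfb2 and Ltbp4 (−0.26 ± 0.07, adjusted p = 0.023) lower. Ltbp2 there had adjusted p = 0.0633 with GC correction as well. Pericyte and smooth muscle markers, summed over 4 genes, ranged from 93.1 to 544 CPM in LacZ CTRL and from 258 to 865 CPM in iCre CTRL, and their part in these differences was not tested.

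Under TGFβ, IL-1β and TNFα the GC trend bears on the comparison of iCre with LacZ. With TGFβ and the block 7 passed, 4 higher and 3 lower, against 9.67% and 11.1% of all genes. Tgfb1 (0.47 ± 0.1, adjusted p = 0.00142), Ltbp1 (0.3 ± 0.09, adjusted p = 0.0164), Ltbp2 (0.29 ± 0.08, adjusted p = 0.0165) and Ltbp3 (0.25 ± 0.08, adjusted p = 0.0316) were higher, and Tgfb2, Tgfbr1 (−0.5 ± 0.1, adjusted p = 0.00147) and Tgfbr2 (−0.5 ± 0.11, adjusted p = 0.00169) lower. After GC correction with the block none was higher and 3 were lower (3.47% and 5.81%), namely Tgfb2, Tgfbr2 (−0.57 ± 0.11, adjusted p = 0.00301) and Ltbp4 (−0.39 ± 0.07, adjusted p = 0.0018). The calls of Tgfb1 (0.3 ± 0.09, adjusted p = 0.064), Tgfbr1 (−0.06 ± 0.11, adjusted p = 0.875) and Ltbp1 (0.12 ± 0.08, adjusted p = 0.573) were lost, and so were those of Ltbp2 (−0.01 ± 0.08, adjusted p = 1) and Ltbp3 (−0.04 ± 0.08, adjusted p = 0.886).

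With IL-1β and the block 3 were higher and 3 lower, against 14.6% and 14.9% of all genes. Ltbp1 (0.59 ± 0.1, adjusted p = 0.000128), Tgfbr2 (0.42 ± 0.09, adjusted p = 0.0012) and Tgfb3 (0.29 ± 0.08, adjusted p = 0.0086) were higher, and Tgfb2, Tgfbr1 (−0.38 ± 0.09, adjusted p = 0.00286) and Ltbp4 (−0.26 ± 0.09, adjusted p = 0.0272) lower. After GC correction 2 were higher and 3 lower (9.68% and 12.9%): Tgfbr2 (0.32 ± 0.09, adjusted p = 0.0132) and Ltbp1 (0.4 ± 0.1, adjusted p = 0.00684) higher, and Tgfb2, Ltbp3 (−0.27 ± 0.08, adjusted p = 0.0277) and Ltbp4 (−0.58 ± 0.09, adjusted p = 9.1e-05) lower. Tgfb3 (0.09 ± 0.07, adjusted p = 0.477) and Tgfbr1 (0.02 ± 0.08, adjusted p = 0.918) were no longer called. With TNFα and the block 2 were higher, Tgfb1 and Ltbp1 (0.5 ± 0.13, adjusted p = 0.0141), and 2 lower, Tgfb2 and Tgfbr2 (−0.36 ± 0.12, adjusted p = 0.0495), against 17.1% and 15.1%. After GC correction 2 were higher, Tgfb1 and Tgfbr1 (0.44 ± 0.12, adjusted p = 0.025), and 3 lower (13.7% and 13.9%), Tgfb2, Tgfbr2 (−0.48 ± 0.12, adjusted p = 0.0192) and Ltbp4 (−0.42 ± 0.08, adjusted p = 0.00593), and Ltbp1 was no longer called (0.3 ± 0.12, adjusted p = 0.109). Tgfbr2 was thus lower in iCre under TGFβ and TNFα and higher under IL-1β, and Ltbp4 was lower in all 5 treatments, in the fit with both terms. Ltbp4 has the highest GC content of the 10 genes, at 62.2%, and its result depends on the correction. Without either term it was −0.06 ± 0.14 with TGFβ and −0.12 ± 0.18 with TNFα (adjusted p = 0.865 and 0.671, edgeR).

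**Figure D4:**
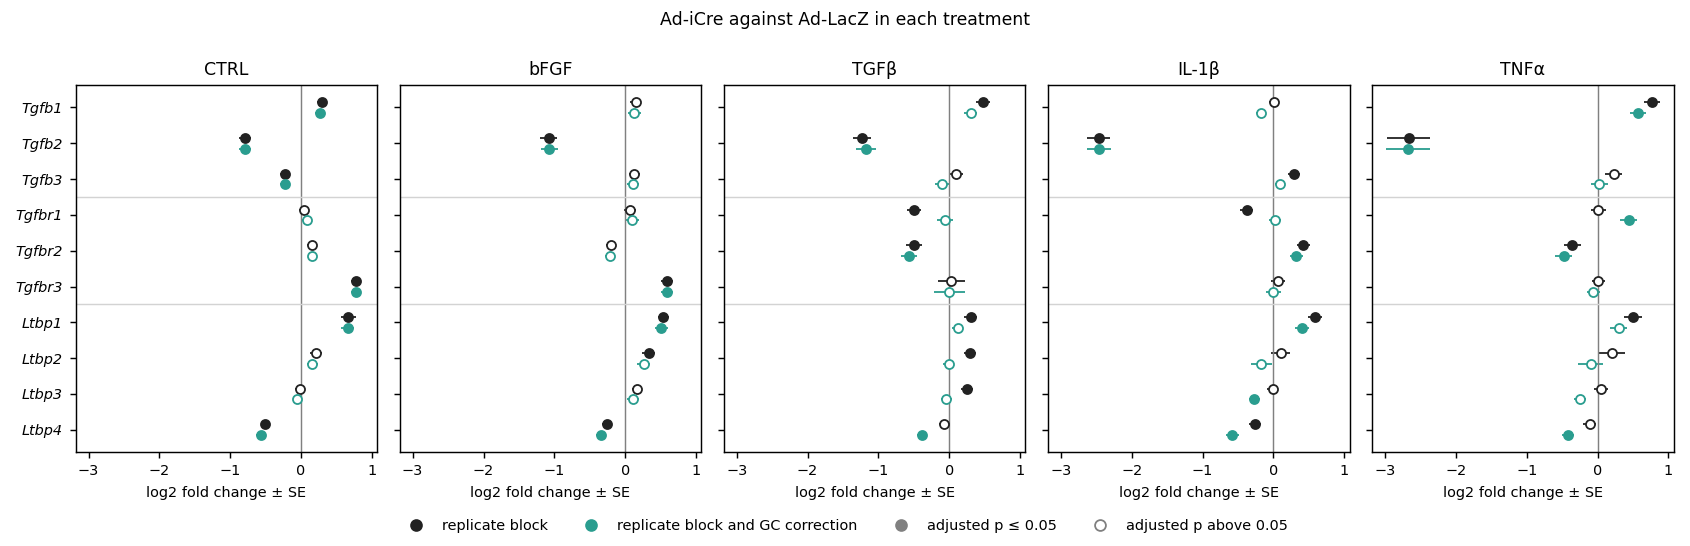
Log2 fold change ± SE of iCre against LacZ in each treatment, with the replicate number as a block (black) and with GC correction added (green); filled points had an adjusted p of at most 0.05. Tgfb2 is lower in every panel under both fits, whereas Tgfbr1 shifts with the GC correction in TGFβ, IL-1β and TNFα.

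Several replicate numbers kept to 1 end of the range of a gene in most groups. Replicate 2 was the highest library for Tgfbr3 in 10 of 10 groups, for Tgfb3 in 9 and for Ltbp1 and Ltbp2 in 8 each. It was the lowest for Ltbp4 in 10 and for Tgfb1 in 9. Replicate 1 was the highest for Ltbp4 in 10 and for Tgfb2 and Tgfbr2 in 8 each. Replicate 4 was the lowest for Tgfb3 and Ltbp3 in 8 each. The sum of the 4 pericyte and smooth muscle markers had a median of 252 CPM over the 10 replicate 2 libraries, beside 689, 852 and 657 CPM for replicates 1, 3 and 4, and that of the 5 leukocyte and macrophage markers 34.4 CPM beside 80.5, 39.0 and 96.2 CPM; their part in the pattern was not tested. Without replicate 2, TGFβ called all 10 genes in LacZ, 8 higher and 2 lower. With all replicates kept, DESeq2 and the replicate block gave the same 8 and 2. In the fit of all replicates without the block, which called 7 higher and 2 lower, 17.5% of all genes rose and 19.3% fell. No such share was counted for the fits that gave 8 and 2, so their counts have none beside them. Replicate 1 carries library numbers 31 to 40 and the other replicates 51 to 80.

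The mixture of ligand transcripts shifted with treatment. As shares of the summed CPM per kilobase of merged exons, Tgfb3 made up 72.2% ± 4.88 (SD, n = 4), Tgfb2 15.4% ± 2.44 and Tgfb1 12.4% ± 2.64 in LacZ CTRL. By this length Tgfb3 was the largest share in all 10 groups, and its lowest mean share was 43.4% ± 10.2, in LacZ IL-1β, where Tgfb2 reached 28.9% ± 4.73. In iCre TNFα Tgfb1 made up 41.3% ± 8.12 and Tgfb2 3.78% ± 3.96, against 26.9% ± 4.47 and 20.6% ± 7.41 in LacZ TNFα. These shares describe RNA, not secreted ligand, and their order depends on the length. By the longest transcript, Tgfb1 was above Tgfb3 in LacZ IL-1β (27.6 against 22.5 CPM per kilobase), iCre TGFβ (104 against 77.4) and iCre TNFα (33.7 against 22.8).

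**Figure D5:**
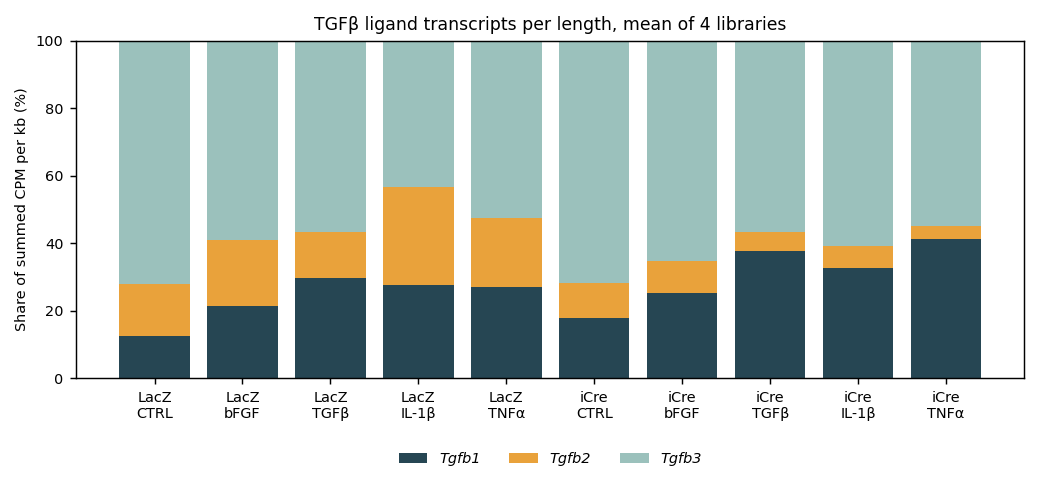
Share (%) of Tgfb1, Tgfb2 and Tgfb3 in their summed CPM per kilobase of merged exons, mean of 4 libraries in each of the 10 groups. By this length Tgfb3 is the largest part in each group (by the longest transcript Tgfb1 is above it in LacZ IL-1β, iCre TGFβ and iCre TNFα), and the Tgfb2 part is smaller in iCre than in LacZ in each treatment, down to 3.78% with TNFα.

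Other genes of the pathway were counted as lists. Of 14 TGFβ target genes, 12 rose with TGFβ in both LacZ and iCre cells (17.5% and 18.6% of all genes) and none fell (19.3% and 18.8%), with median log2 fold changes of 2.71 and 2.92 beside −0.17 and −0.11 over all genes. Ccn2, a matricellular protein gene, rose by 5.39 ± 0.45 in LacZ (adjusted p = 1.19e-05) and Acta2, which encodes smooth muscle actin, by 4.52 ± 0.42 (adjusted p = 2.24e-05). Of 18 genes that set receptor and SMAD levels, 10 rose and 2 fell with TGFβ in LacZ, against 17.5% and 19.3% of all genes. Pmepa1 (2.71 ± 0.12, adjusted p = 6.43e-07), Skil (2.48 ± 0.1, adjusted p = 6.43e-07) and Smad7 (2.45 ± 0.23, adjusted p = 2.36e-05), all known inhibitors of the pathway, rose most. Smad3 fell by 0.88 ± 0.13 on the log2 scale (adjusted p = 0.000492).

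Of 22 genes that activate latent TGFβ or anchor it in the matrix, 13 rose and 2 fell with TGFβ in LacZ, against 17.5% and 19.3% of all genes, with a median of 0.89 beside −0.17. Eln, the elastin gene, rose by 6.21 ± 0.46 (adjusted p = 6.21e-06), Thbs1, whose product thrombospondin can activate latent TGFβ, by 3.17 ± 0.43 (adjusted p = 0.000243), and Fbn1, the gene of the fibrillin to which LTBPs bind, by 1.72 ± 0.16 (adjusted p = 2.13e-05). With IL-1β in LacZ 8 of the 22 rose and 2 fell, against 11.1% and 9.55% of all genes. Among them Mmp9, a matrix protease gene, rose by 2.52 ± 0.37 (adjusted p = 0.00117) and the integrin subunit gene Itgb8 by 1.46 ± 0.14 (adjusted p = 9.39e-05). Furin, whose protease cleaves the TGFβ precursor, rose by 0.87 ± 0.08 (adjusted p = 6.93e-05). With TNFα in LacZ 5 of the 22 rose and 4 fell (10.9% and 10.4% of all genes), and with bFGF 2 rose and 3 fell (7.0% and 4.64%).

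Of those 22 genes, the 1 higher and the 1 lower in iCre than in LacZ with TGFβ were Itgb3 and Itgb8. With IL-1β and TNFα other genes of the 22 also passed in each direction and are not named here. Itgb8 and Itgb3 encode β subunits of integrins that bind the latent TGFβ propeptide, and Itgb8 is a known activator. In TGFβ Itgb8 read 66.3, 41.2, 69.7 and 67.9 CPM under LacZ, and under iCre 20.0, 10.9, 12.8 and 7.99 CPM. In IL-1β it read 96.1, 62.1, 72.3 and 66.6 CPM under LacZ, and under iCre 19.6, 18.7, 14.7 and 14.6 CPM. All iCre libraries were below all LacZ libraries. The differences were −2.28 ± 0.27 (adjusted p = 0.000718) with TGFβ, −2.15 ± 0.16 (adjusted p = 5.46e-05) with IL-1β and −2.13 ± 0.31 (adjusted p = 0.000894) with TNFα. GC correction with the block gave −1.82, −1.69 and −1.77 (adjusted p = 4.73e-06, 1.92e-09 and 0.000384).

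Itgb8 also passed the test of unlike responses to these ligands, with −1.97 ± 0.31 for TGFβ (adjusted p = 0.00112), −1.84 ± 0.21 for IL-1β (adjusted p = 4.59e-05) and −1.84 ± 0.34 for TNFα (adjusted p = 0.00167). TGFβ raised it in LacZ by 1.18 ± 0.16 (adjusted p = 0.000223) and lowered it in iCre by 0.76 ± 0.25 on the log2 scale (adjusted p = 0.0343). The iCre call was lost with GC correction (−0.33 ± 0.25, adjusted p = 0.335) and with GC correction and the block (−0.39 ± 0.15, adjusted p = 0.0566). Itgb3 was higher in iCre with TGFβ (1.04 ± 0.19, adjusted p = 0.00766), IL-1β (1.57 ± 0.2, adjusted p = 0.000601) and TNFα (2.7 ± 0.22, adjusted p = 7.85e-05). With TNFα it read 16.8, 18, 20.0 and 18.4 CPM under LacZ, and under iCre 82.1, 87.4, 127 and 174 CPM, with no overlap. With GC correction and the block the differences with TGFβ, IL-1β and TNFα were 0.84, 1.34 and 2.45 (adjusted p = 0.000164, 1.5e-07 and 5.18e-05). With GC correction alone the TGFβ call was lost (0.88 ± 0.18, adjusted p = 0.053). In CTRL, Itgb3 was already higher in iCre by 1.08 ± 0.16 (adjusted p = 0.0566), and by 1.07 ± 0.07 with the block (adjusted p = 1.56e-07). Its test of unlike responses passed for TNFα (1.62 ± 0.29, adjusted p = 0.00133). It did not pass for TGFβ (−0.04 ± 0.26) or IL-1β (0.49 ± 0.27, adjusted p = 0.344). Over all 22 genes, 1 was higher and 1 lower in iCre with TGFβ (2.51% and 5.87% of all genes), 2 and 2 with IL-1β (7.14% and 8.98%), and 3 and 5 with TNFα (14.8% and 12.6%).

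For each of the 10 genes, the protein-coding gene outside the list with the most similar pattern was sought by Pearson correlation of mean log2 CPM over the 10 groups, among 10557 genes. These correlations are descriptions over 10 group means that share their libraries. The closest were Isg20l2 to Ltbp2 (0.996), Cnot11 to Tgfb1 (0.994), Prkag2 to Tgfb3 (0.982) and Cfap69 to Tgfbr3 (0.981). Greb1l was closest to Tgfb2 (0.97), Arfgap3 to Ltbp3 (0.973), Pcyox1l to Ltbp1 (0.965), Itgb1 to Ltbp4 (0.959), Fpgt to Tgfbr1 (0.933) and Arhgap32 to Tgfbr2 (0.918). Over the 40 single libraries the correlation of Prkag2 with Tgfb3 was 0.668.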

How the data were processed

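Deposited gene counts (raw, whole numbers) of 40 libraries were analysed, 4 replicates in each of 10 groups. Per the submitters' processing notes, the authors used FastQC 0.10.1 and counted with HTSeq 0.10.0 on GRCm38; the strand setting is not given in the sources used here, and the labels and the study's methods name different library kits. The 25210 genes with at least 10 counts in total were tested with edgeR 4.0.16 (TMM, quasi-likelihood; R 4.3.3), 8 libraries per comparison and 16 per test of a different response, 17 comparisons in all, with Benjamini-Hochberg adjustment over all genes and a threshold of 0.05; SE is the log2 fold change divided by the square root of F. CPM values use TMM-scaled library sizes.

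Alternatives were DESeq2 1.42.0, RLE normalization, other filters, GC correction (a lowess offset, 24970 genes), 1 fit of all libraries, each replicate left out and the replicate number as a block. Same-numbered libraries of different groups deviated together, with a mean correlation of 0.575 over 180 pairs. It was −0.159 over 540 pairs with other numbers, and the lowest value for equal numbers within a comparison was 0.311. The fits with the block therefore take the numbers as pairs. Fits without the block, among them those with 1 replicate left out, ignore this pairing, and the calls given first rest on them. The 10 genes were named by rule, all being reported, and members, gene lists and tests were chosen with earlier results of these data known. On simulated counts for TGFβ in LacZ, 61.5% of 200 genes changed by 1 on the log2 scale were recovered, with 7 false calls among 20477 genes. With the block 56% were recovered, and in the test of different IL-1β responses 50%. The simulated libraries were drawn independently and without a GC trend, so these rates need not hold for the real libraries. Promoters came from RefSeq.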

Additional observations from a re-analysis of the deposited data

Results flagged for a closer look

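Of 100 sets of 4 libraries (10 genes in 10 groups), 16 held a library that stood apart by Dixon's 95% criterion. There its distance to the nearest of the others was a large share of the set's range. Chance flags about 1 in 20 independent sets. These sets share replicate numbers across genes and groups, so the 16 cannot be tested against that rate. Replicate 2 was the flagged library in 15 of the 16, and 9 of those were sets of Tgfbr3. For Tgfbr3 it read 332 CPM in LacZ CTRL, 472 in bFGF, 416 in IL-1β and 279 in TNFα, and in iCre 598 in CTRL, 744 in bFGF, 60.9 in TGFβ, 596 in IL-1β and 295 in TNFα. In those 9 groups the other libraries lay between 102 and 230 CPM in LacZ and, leaving TGFβ aside, between 103 and 220 CPM in iCre. For Tgfb3 replicate 2 read 119 CPM in LacZ bFGF (others 90.0 to 91.7), 440 in TGFβ (others 190 to 198) and 114 in IL-1β (others 62.3 to 66.3). For Ltbp1 it read 627 CPM in LacZ CTRL (others 247 to 271), 1241 in TGFβ (others 609 to 686) and 552 in IL-1β (others 260 to 262). The remaining case was Ltbp3 in LacZ CTRL, where replicate 1 read 650 CPM and the others 515 to 527.

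The response of Tgfb2 to IL-1β differed between the viruses by −1.58 on the log2 scale (iCre minus LacZ; adjusted p = 0.0216, edgeR), with Tgfb2 higher with IL-1β than in CTRL in 4 of 4 LacZ replicates and lower in 4 of 4 iCre replicates.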

How the results depend on the processing

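Of the 40 calls made without the block for the 10 genes, DESeq2, RLE normalization, the stricter expression filter and the replicate block each kept 40, no filter 38, GC correction 38, GC correction with the block 39 and 1 fit of all 40 libraries 30. Leaving out replicate 1, 2, 3 or 4 kept 31, 37, 25 and 28. The block changed no call beyond those given beside the results. Among the 105 gene and comparison pairs called without the block, with it, or with it and GC correction, 6 changed sign under an alternative. With GC correction, IL-1β against CTRL in iCre gave Tgfbr1 0.25 (0.24 with the block as well), and iCre against LacZ gave Ltbp2 −0.02 (−0.01) and Ltbp3 −0.04 (−0.04) with TGFβ and Tgfbr1 0.04 (0.02) with IL-1β. For iCre against LacZ, Ltbp3 with IL-1β, near 0 without GC correction, was 0.0 in the fit of all 40 libraries and −0.06 to 0.08 with 1 replicate left out, and Tgfbr1 with TNFα, likewise near 0, was −0.01 with DESeq2, −0.01 with RLE, −0.02 with the stricter filter and −0.05 to 0.14 with 1 replicate left out. The cause was not tested.

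Counts of called genes moved as follows. No share of all genes was counted for DESeq2, the stricter filter, GC correction alone or the fit of all libraries. Nor was it counted with 1 replicate left out. With GC correction and the block it was counted only for iCre against LacZ in TGFβ, IL-1β and TNFα. Counts without a share show only how the calls moved. With the replicate block, and then with GC correction and the block, bFGF in LacZ called 7 and 7, IL-1β in LacZ 8 and 8, bFGF in iCre 4 and 4, IL-1β in iCre 5 and 6, and TNFα in iCre 8 and 7; TNFα in LacZ called 7 and 6. For iCre against LacZ these fits called 6 and 6 in CTRL, 5 and 4 in bFGF, 7 and 3 in TGFβ, 6 and 5 in IL-1β and 4 and 5 in TNFα, and for different responses 2 and 1 with TGFβ, 3 and 3 with IL-1β and 6 and 3 with TNFα. DESeq2 called 1 with bFGF in iCre, and for iCre against LacZ 1 in CTRL, 2 in bFGF and 2 in TGFβ, and 2 for different TGFβ responses. The stricter filter called 2, and GC correction alone 0, for iCre against LacZ in TGFβ. The fit of all 40 libraries called 1 with bFGF in LacZ, 1 with bFGF in iCre and 0 for different IL-1β responses, where Tgfb2 had adjusted p = 0.105 (edgeR).

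With 1 replicate left out, the counts ranged from 0 to 4 for bFGF, 5 to 10 for TGFβ, 3 to 6 for IL-1β and 4 to 5 for TNFα in LacZ, and from 0 to 2, 7 to 8, 2 to 3 and 2 to 4 in iCre. For iCre against LacZ they ranged from 0 to 2 in CTRL, 0 to 2 in bFGF, 0 to 4 in TGFβ, 1 to 2 in IL-1β and 1 to 3 in TNFα. For different responses they ranged from 0 to 2 with TGFβ, 0 to 1 with IL-1β and 0 to 1 with TNFα.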
